A study of Mus musculus with 87 samples.

Results

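Distal H3K27ac sites lost with PlaB were described across chromatin, OBOX4 binding, repeats, sequence and nearest genes. The sites were merged from the H3K27ac peak lists of 3 wild-type (WT) mouse embryonic stem cell (mESC) libraries without pladienolide B (PlaB). A site was kept as lost when all 3 of these lists held it, when no peak of the 3 WT lists with PlaB overlapped it by 1 base or more, and when it lay more than 3000 bases from every gene start. The merge gave 61106 sites, of which 26080 were held by all 3 lists and 16972 of those were distal. The members were thus chosen by the H3K27ac peaks of WT mESCs with and without PlaB. Of the 16972 distal sites, 2175 (12.8%) were lost with PlaB and 14797 (the other distal sites) were kept in at least 1 WT list with PlaB. Among 9108 sites within 3000 bases of a gene start, 443 (4.86%) met the same condition of loss. Because these 6 lists chose the sites, the presence and absence of H3K27ac peaks in them is a description and was not tested.

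The study examined *Obox4* and *Dux* with CUT&RUN, which maps the DNA cut around an antibody target, and with RNA-seq. All mESCs described here were of the EB3 line on the 129/Ola background. H3K27ac, H3K4me3 and H3K27me3 were mapped in WT and *Obox4* knockout (KO) mESCs, each without PlaB and with PlaB, with 3 lists per mark and condition. FLAG-tagged OBOX4 was mapped in 3 lists, and FLAG-tagged DUX in 1, in mESCs that carried a doxycycline-driven TRE-3xFLAG transgene and were given doxycycline. RNA-seq covered PlaB-treated mESCs of 4 genotypes (WT, knockout of *Obox4*, of *Dux*, or of both) and the *Obox4*-inducible line at 0, 12 and 48 h of doxycycline, with 3 libraries each. PlaB cultures were passaged several times in the drug. The *Obox4* KO and *Obox4*-inducible lines were derived by picking single-cell clones, and the KO was made by cutting around and inside the multicopy *Obox4* cluster. No WT RNA library without PlaB was analysed here.

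H3K27ac is an acetyl mark on histone H3 found at active promoters and at active enhancers, many of which lie far from any gene start. PlaB inhibits the spliceosome, and mESCs kept in it move towards a state with features of the totipotent blastomere, in which genes of the two-cell (2C) embryo are switched on. OBOX4 is a homeodomain transcription factor of the 2C embryo that binds gene promoters and long terminal repeats (LTRs) of endogenous retroviruses.

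The middle 300 bases of 6 lost sites were read from the plus strand of GRCm38.p6, the build to which the authors aligned their reads. They stand for the site with the highest H3K27ac enrichment before PlaB (Gm48995), the strongest site bound in all 3 OBOX4 lists (Dynlrb2), the strongest site held in every *Obox4* KO list without PlaB and in none with PlaB (Wdr20), the lost sites nearest to the pluripotency genes *Nanog* and *Tfcp2l1*, and the strongest site of a cluster inside the X-linked non-coding gene *Firre*. Each is named by the gene with the nearest start. Capitals mark letters that were searched: GGGATTA, the bicoid-like homeodomain core that is part of the OBOX4 motif, stood on the plus strand in the Gm48995 and Nanog sites, and the other 4 windows held none of the letters listed further on.
Gm48995 site, chr14:95659529-95659828: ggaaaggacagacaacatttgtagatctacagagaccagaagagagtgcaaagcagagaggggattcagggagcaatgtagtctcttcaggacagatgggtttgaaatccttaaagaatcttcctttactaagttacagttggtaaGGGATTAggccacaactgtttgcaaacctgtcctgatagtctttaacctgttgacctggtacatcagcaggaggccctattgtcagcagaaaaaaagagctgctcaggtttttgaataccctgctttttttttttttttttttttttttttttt
Dynlrb2 site, chr8:116573026-116573325: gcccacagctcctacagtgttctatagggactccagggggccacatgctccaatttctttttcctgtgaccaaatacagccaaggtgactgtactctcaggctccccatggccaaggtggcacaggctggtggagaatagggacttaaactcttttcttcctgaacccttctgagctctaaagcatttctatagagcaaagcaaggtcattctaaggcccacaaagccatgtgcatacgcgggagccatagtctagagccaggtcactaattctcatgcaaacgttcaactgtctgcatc
Wdr20 site, chr12:110725138-110725437: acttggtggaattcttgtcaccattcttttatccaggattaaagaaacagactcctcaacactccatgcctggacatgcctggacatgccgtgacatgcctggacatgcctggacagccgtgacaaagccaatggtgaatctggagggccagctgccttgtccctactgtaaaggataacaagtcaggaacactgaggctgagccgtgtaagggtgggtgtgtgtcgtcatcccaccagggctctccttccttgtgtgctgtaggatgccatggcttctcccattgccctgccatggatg
Nanog site, chr6:122731828-122732127: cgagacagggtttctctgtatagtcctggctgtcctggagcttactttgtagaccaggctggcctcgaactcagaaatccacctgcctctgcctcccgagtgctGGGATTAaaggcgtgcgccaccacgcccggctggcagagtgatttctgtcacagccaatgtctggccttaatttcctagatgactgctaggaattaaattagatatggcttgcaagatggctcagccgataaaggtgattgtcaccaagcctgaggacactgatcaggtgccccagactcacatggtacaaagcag
Tfcp2l1 site, chr1:118622781-118623080: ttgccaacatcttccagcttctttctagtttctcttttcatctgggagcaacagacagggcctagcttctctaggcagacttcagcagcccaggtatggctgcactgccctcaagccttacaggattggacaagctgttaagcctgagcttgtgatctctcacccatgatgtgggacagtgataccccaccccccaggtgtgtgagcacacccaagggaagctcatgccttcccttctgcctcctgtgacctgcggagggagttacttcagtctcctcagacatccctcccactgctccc
Firre site, chrX:50614759-50615058: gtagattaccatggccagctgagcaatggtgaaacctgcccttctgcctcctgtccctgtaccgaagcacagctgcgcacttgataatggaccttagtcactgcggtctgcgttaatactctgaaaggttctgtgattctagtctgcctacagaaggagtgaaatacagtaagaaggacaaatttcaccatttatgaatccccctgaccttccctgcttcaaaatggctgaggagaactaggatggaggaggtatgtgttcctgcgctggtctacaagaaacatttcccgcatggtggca

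Several libraries differed in ways that touch the results. The H3K27ac lists held 38185, 45158 and 52586 peaks in WT without PlaB, 33127, 40913 and 39370 in WT with PlaB, 47300 to 58109 in *Obox4* KO without PlaB and 49794 to 62836 in *Obox4* KO with PlaB, so every WT list with PlaB was shorter than every KO list. The depth behind a peak list is not given in the files, and peaks were called in each replicate. All 12 stem cell markers were at 1 RPKM or more in every library. Their summed levels were 2626 to 2676 RPKM in WT with PlaB, 1421 to 1922 RPKM in *Obox4* KO with PlaB and 3222 to 3651 RPKM in the inducible line at 0 h. The 14 fibroblast markers summed to 11.8 to 24.0 RPKM over those 3 groups, and 1 to 4 of them were at 0 in each. In KO against WT with PlaB, 3 of the 12 stem cell markers were lower and none higher, by the rule for genes given further on (median log2 fold change −0.80). Of 20 trophectoderm genes, 11 were higher and 1 lower (median 1.60), against 4.92% higher and 3.96% lower over all genes. The markers were thus present but not at equal levels. Reads assigned to the 39 *Obox4* rows came to 16.9, 15.5 and 15.2 CPM in WT with PlaB and to 5.29, 4.10 and 11.5 CPM in the libraries labelled *Obox4* KO, so the third KO library stood nearest to WT. They came to 0.123 to 0.138 CPM in the *Dux* KO libraries, whose labels leave *Obox4* intact, and to 0 to 0.187 CPM in the double KO libraries. The libraries labelled *Obox4* KO thus held fewer *Obox4* reads than WT and more than any library of the other knockouts, and what this says of the label was not tested. The paper reports that *Dux* and *Obox4* each raised the other in mESCs. It also states that the knockout removed only part of the *Obox4* copies, so the 39 rows include copies left in place. The *Obox4* copies are near-identical, and the authors discarded reads that mapped to several places, so the level of *Obox4* is uncertain.

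The lost sites were short and modestly enriched before treatment. Their median length was 750 bases, against 1279 bases for the other distal sites. Their median fold enrichment over the local background was 4.55, 4.66 and 4.57 in the 3 WT lists without PlaB, against 6.22, 7.17 and 7.15 at the other distal sites. The lowest of the 3 values had a median of 3.87 at lost sites and ran from 2.00 to 10.9. Only 50 lost sites had a lowest enrichment of 6 or more, compared with 6429 of the other distal sites. At the edge of the rule, 461 lost sites (21.2%) had a PlaB peak less than 1000 bases away, the nearest 7 bases away. Among them were the printed Gm48995 and Tfcp2l1 sites, at 640 and 749 bases. The median gap was 6388 bases. Just outside the rule stood 2003 sites kept in 1 of 3 lists with PlaB. Their median enrichment in that list was 4.19, and their lowest enrichment without PlaB had a median of 4.10. The number of sites depended on the peak lists: it was 4974 without WT list 1, the shortest list without PlaB, 1256 (9.41%) when each H3K27ac list was held to its 33127 strongest peaks, and 353 when only peaks with a −log10 q of at least 5 were used.

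Lost sites lay mainly inside genes. By their middle base, 1256 (57.75%) were intronic, 131 (6.02%) exonic and 788 (36.2%) intergenic, whereas the other distal sites were 47.6% intronic, 4.89% exonic and 47.5% intergenic. The median distance to a gene start was 16850 bases, and 16820 bases at the other distal sites. Most lost sites stood alone: 1885 had no other lost site within 10000 bases, 115 formed pairs, 16 formed groups of 3 and 3 formed groups of 4. The groups of 4 lay at *Gm21811* on chromosome 8, and in *Firre* and between genes next to *Gpc4* on the X chromosome.

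**Figure D1:**
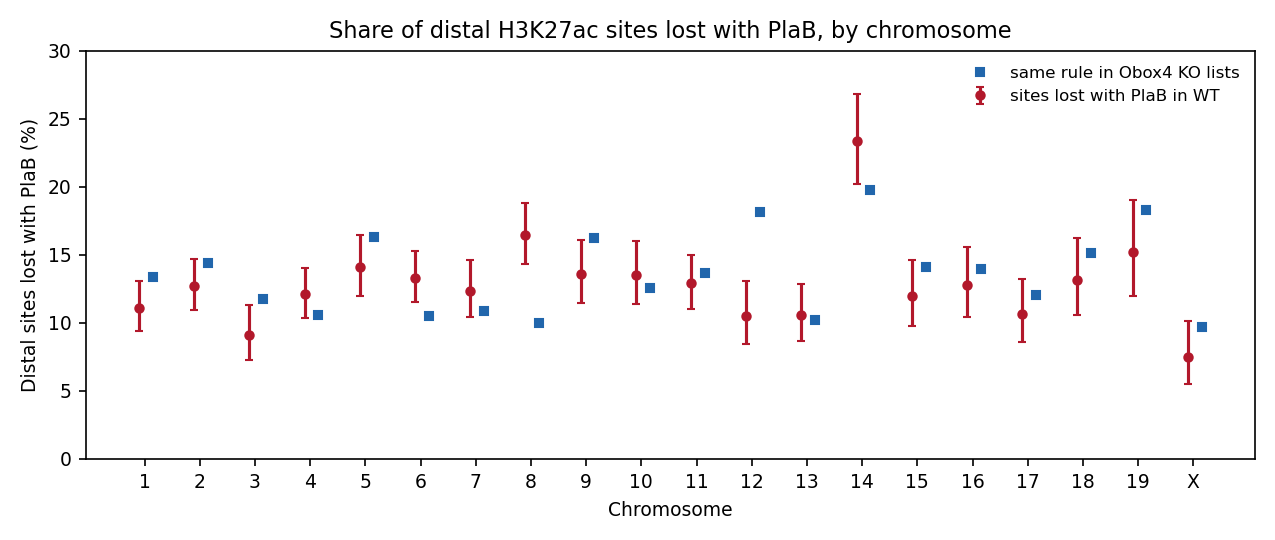
Share of distal H3K27ac sites lost with PlaB on each chromosome (y axis, percent; x axis, chromosome). Red points are WT sites with 95% Wilson intervals and blue squares apply the same rule to the *Obox4* KO lists. Chromosome 14 is highest in both, at 23.3% and 19.8%, whereas chromosome 8 stands at 16.4% in WT and 10.0% in KO.

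The share of sites lost differed along the genome. On chromosome 14, 148 sites were lost, 23.3% of its distal sites (95% Wilson interval 20.2 to 26.8%). On chromosome 8, 173 sites were lost (16.4%), on the X chromosome 37 (7.49%), and on the Y chromosome none of 21, which allows a share of up to 15.5% by the Wilson interval. The same rule applied to the *Obox4* KO lists gave 19.8% on chromosome 14 and 10.0% on chromosome 8. Chromosome 14 also took a smaller part of all H3K27ac peaks with PlaB in both lines: 3.63 to 3.66% fell to 3.07 to 3.19% in WT, and 3.68 to 3.72% to 3.06 to 3.22% in KO, with no overlap between the lists. In KO without PlaB, chromosome 8 held 4.73 to 4.88% of the peaks, compared with 5.99 to 6.39% in WT without PlaB. With PlaB the lines overlapped, at 5.68 to 6.18% in KO and 5.71 to 5.97% in WT. The median log2 fold change of all tested genes on chromosome 8 was 0.48 in KO against WT with PlaB. It was −0.41 on the X chromosome and 0.22 on chromosome 6. With PlaB the X chromosome held 2.56 to 2.60% of the peaks in KO and 3.11 to 3.23% in WT. Gene dosage, chromatin and peak calling cannot be told apart in these files. Without chromosomes 8 and 14, 1854 lost sites remained.

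In *Obox4* KO mESCs part of the lost sites carried H3K27ac with PlaB, and how large a part depended on the length of the lists. Without PlaB, 71.9, 76.2 and 62.7% of the lost sites held a KO peak (70.3 ± 6.90%, SD, n = 3), and with PlaB 60.7, 59.2 and 53.5% did (57.8 ± 3.79%, SD, n = 3). The groups of lists did not overlap, and the share fell by 12.5 percentage points. At the other distal sites the KO share fell by 4.99 points, from 92.3 ± 2.64% to 87.3 ± 1.61% (SD, n = 3). The exact permutation test over lists gave a two-sided p = 0.1, the smallest that 3 against 3 lists allow, and 0.167 after Benjamini-Hochberg adjustment over the 5 tests of marks made here. With every H3K27ac list held to its 33127 strongest peaks, the KO lists held 53.7, 51.3 and 46.6% of the lost sites without PlaB and 43.3, 37.0 and 39.0% with PlaB. Where a lost site had a KO peak, its median enrichment was 5.77 to 6.19 without PlaB and 5.08 to 5.26 with PlaB.

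**Figure D2:**
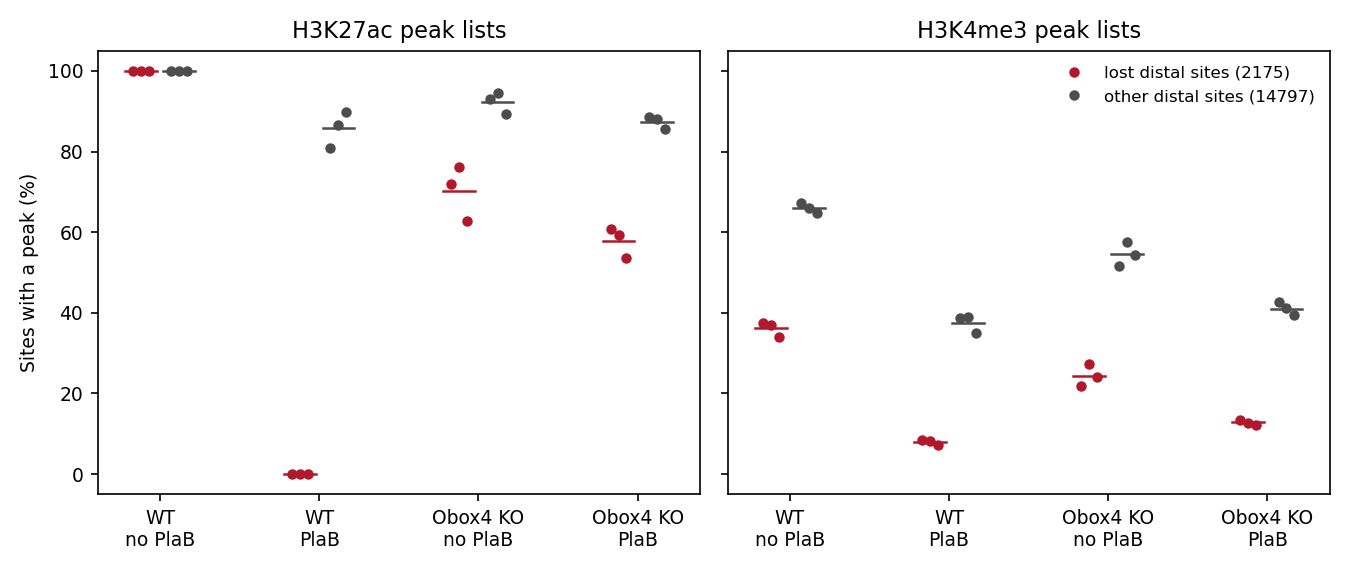
Share of distal sites that hold a peak (y axis, percent) in each H3K27ac list (left) and H3K4me3 list (right), by line and treatment; red points are the 2175 lost sites, grey points the 14797 other distal sites, one point per list, with the mean as a line. The H3K27ac values in WT are set by the rule. In *Obox4* KO with PlaB the lost sites sit between 53.5 and 60.7%, and H3K4me3 at lost sites drops below 9% in the WT lists with PlaB.

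Taken site by site, the KO state of the lost sites was mixed. All 3 KO lists without PlaB held 1201 lost sites (55.2%), and no such list held 360 (16.6%). With PlaB, all 3 KO lists held 949 lost sites (43.6%) and at least 1 held 1556 (71.5%, 95% Wilson interval 69.6 to 73.4%). Only 184 lost sites (8.46%) were held in all 3 KO lists without PlaB and in none with PlaB, a pattern found in 3.74% of all distal sites and in 3.04% of the other distal sites. Of the 1201 lost sites held in every KO list without PlaB, 717 (59.7%) were still in every KO list with PlaB, compared with 87.7% of the other distal sites. When the rule was run on the KO lists instead, 2960 of 22185 distal sites (13.3%) were lost. Only 161 lost WT sites, 7.40% of them, overlapped a site lost in KO, and these covered 160 (5.41%) of the KO sites. Of the sites lost in KO, 886 (29.9%) held a peak in at least 1 WT list with PlaB. With all H3K27ac lists held to 33127 peaks, 59.6% of the lost WT sites held a peak in at least 1 KO list with PlaB and 40.9% of the lost KO sites in at least 1 WT list with PlaB. The difference between the directions therefore narrowed at equal list sizes. It was not tested.

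**Figure D3:**
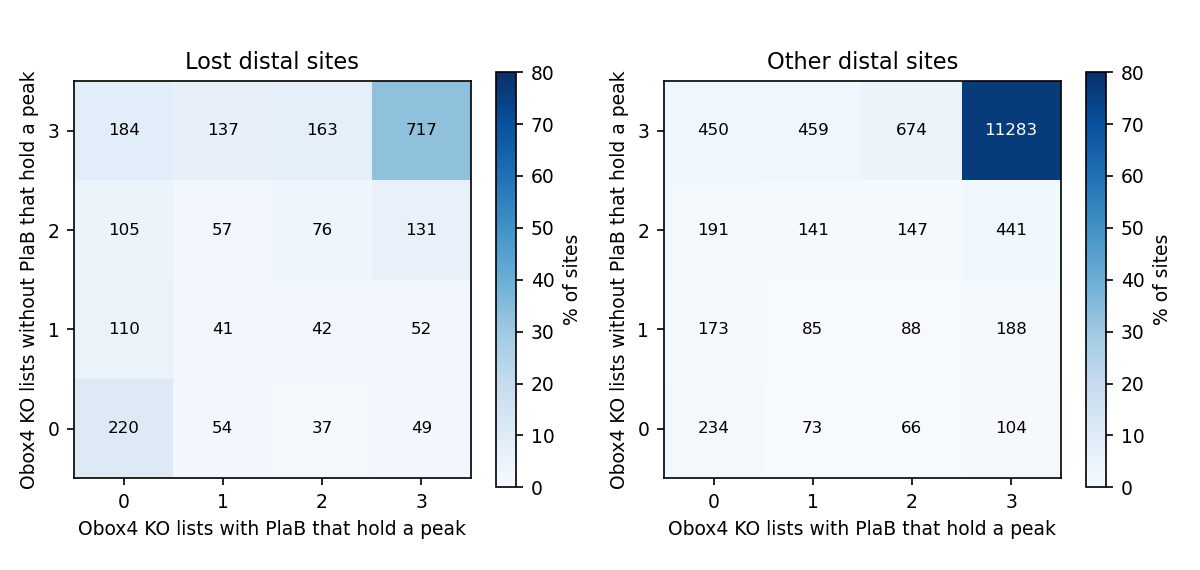
Number of sites by how many of the 3 *Obox4* KO H3K27ac lists with PlaB (x axis) and without PlaB (y axis) hold a peak; the shade is the percent of sites in the panel. Of the lost sites (left) 717 are in all 6 KO lists, 184 in all 3 without and none with PlaB, and 220 in none; of the other distal sites (right) 11283 are in all 6.

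H3K4me3, a mark of active promoters that is also deposited at some strong enhancers, was found at part of the lost sites and was scarce there with PlaB. In WT, H3K4me3 lists without PlaB held 37.5, 36.9 and 34.1% of the lost sites (36.1 ± 1.82%, SD, n = 3) and lists with PlaB 8.51, 8.28 and 7.13% (7.97 ± 0.739%, SD, n = 3). The fall was 28.2 percentage points, close to the 28.5 points at the other distal sites (66 ± 1.16% to 37.5 ± 2.18%, SD, n = 3). As a share of the starting level, 22.05% of the H3K4me3 share remained at lost sites and 56.81% at the other distal sites. In *Obox4* KO the share at lost sites fell by 11.5 points, from 24.3 ± 2.66% to 12.8 ± 0.632% (SD, n = 3). Both comparisons reached the smallest two-sided exact p of 0.1 (0.167 adjusted over the 5 tests). The WT H3K4me3 lists were longer without PlaB (48273 to 50367 peaks) than with PlaB (31829 to 33840 peaks), and the KO lists less so (38648 to 44767 against 33649 to 36515). With every H3K4me3 list held to 31829 peaks, the fall at lost sites was 10.8 points in WT and 3.97 points in KO.

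The change in H3K4me3 with PlaB was larger in WT than in KO at the lost sites. WT minus KO was −16.7 percentage points, and an exact permutation of the WT and KO labels among the lists of each treatment gave p = 0.005, the smallest of 400 arrangements. This test takes the lines as interchangeable within each treatment. The lines already differed without PlaB (36.1% in WT and 24.3% in KO), and every site was chosen by WT H3K27ac peaks. The p-value therefore does not test the change alone. The difference was −15.1 points (p = 0.005, exact) at the other distal sites, so it was not a property of the lost sites alone. At equal list sizes it was −6.87 points at lost sites (p = 0.005, exact) and −5.35 points at the other distal sites (p = 0.045, exact). By site, 546 lost sites (25.1%) had H3K4me3 in at least 2 WT lists without PlaB and in none with PlaB, a share near the 23% of all distal sites and the 22.7% of the other distal sites.

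H3K27me3, the Polycomb mark of silent genes, was nearly absent from the lost sites. It was found at 0.276, 0.368 and 0.276% of them in WT without PlaB and at 0.460, 0.276 and 0.368% with PlaB, which overlapped (difference 0.0613 percentage points, exact permutation p = 0.7, n = 3 against 3). In *Obox4* KO the shares were 0.935 ± 0.374% without and 1.55 ± 0.562% with PlaB (SD, n = 3; exact permutation p = 0.3, 0.375 adjusted). The sites that lost H3K27ac in WT were thus not listed as H3K27me3 peaks after treatment, apart from 6 to 10 sites per list.

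OBOX4 peaks were less frequent at lost sites than at other distal sites. The 3 lists held 20.5, 14.4 and 15.8% of the lost sites, against 49.6, 40.2 and 41.7% of the other distal sites. In at least 2 lists OBOX4 was found at 348 lost sites (16.0%, 95% Wilson interval 14.5 to 17.6%), while 39.6% of all distal sites and 43.1% of the other distal sites met this condition. DUX was found at 4 lost sites (0.184%) and at 1.48% of the other distal sites, from 1 list of 1802 peaks. Lost sites were shorter, so the count was repeated with OBOX4 peaks within 150 bases of the middle of each site: 14.2% of lost and 33.8% of other distal sites then held one.

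OBOX4-bound lost sites held H3K27ac more often than unbound ones in KO without PlaB and about equally often with PlaB. At least 2 KO lists with PlaB held 204 of the 348 bound sites (58.6%, 53.4 to 63.7%) and 1063 of the 1827 unbound sites (58.2%, 55.9 to 60.4%). Without PlaB the shares were 85.9% of bound and 69.6% of unbound sites, so the bound sites had the larger drop, which was not tested. H3K4me3 in at least 2 WT lists without PlaB was found at 45.4% of the bound and 33.9% of the unbound lost sites, and with PlaB at 8.91 and 7.33%. The strongest site bound in all 3 OBOX4 lists was the intergenic Dynlrb2 site printed above, 67750 bases from that dynein light chain gene. Its H3K27ac enrichment was 8.20, 12.3 and 8.23 in WT without PlaB, 21.4, 20.5 and 19.7 in KO without PlaB and 14.0, 11.7 and 11.7 in KO with PlaB, and its OBOX4 enrichment 7.97, 12.2 and 6.88. At this site the KO lists without PlaB were all above the WT lists, while of those with PlaB 1 lay above the WT lists and the other two within their range. It carried H3K4me3 at 3.93, 7.26 and 5.60 in WT without PlaB and in no WT list with PlaB.

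**Figure D4:**
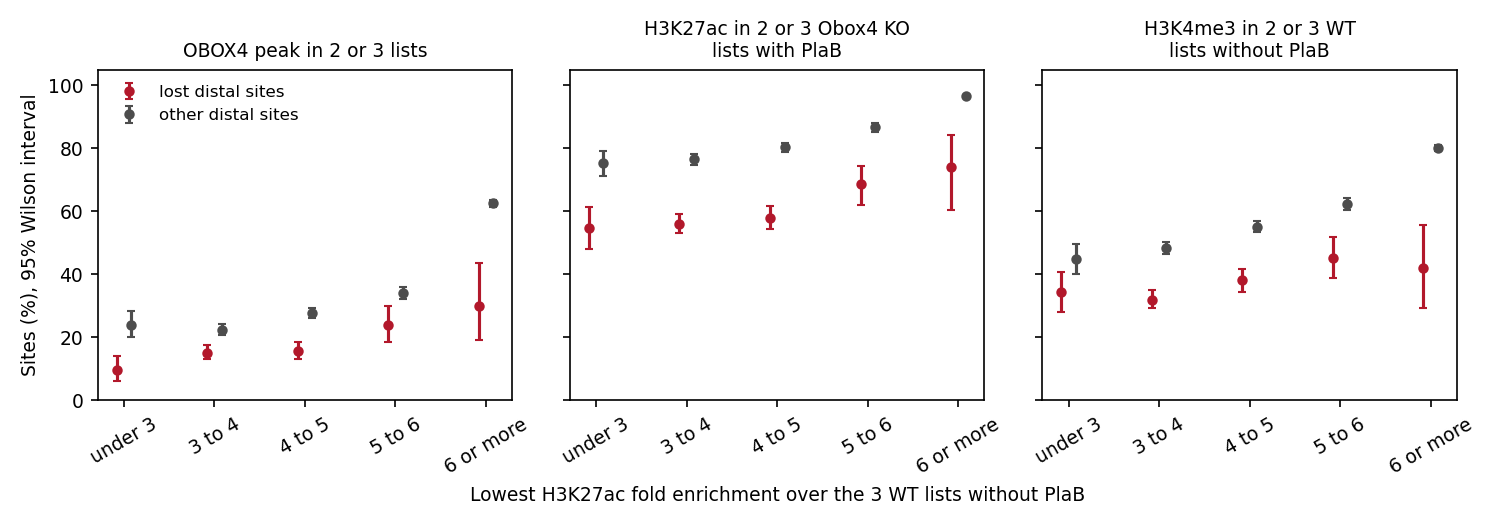
Share of lost (red) and other (grey) distal sites with OBOX4 in at least 2 lists (left), with H3K27ac in at least 2 *Obox4* KO lists with PlaB (middle) and with H3K4me3 in at least 2 WT lists without PlaB (right), on the y axis in percent with 95% Wilson intervals, by the lowest H3K27ac fold enrichment in WT without PlaB (x axis). Lost sites lie below the other sites in every bin, as in the bin of 4 to 5, where OBOX4 is at 15.7 and 27.7%.

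Because lost sites were weaker to begin with, the shares were also compared within bins of their lowest WT enrichment. Under 3, OBOX4 was found at 9.52% of 210 lost and 24.1% of 432 other sites. Between 3 and 4, OBOX4 was found at 15.2% of 1014 lost and 22.5% of 2316 other sites. Between 4 and 5 it was found at 15.7% of 687 lost and 27.7% of 3085 other sites, and at 6 or more at 30.0% of 50 lost (19.1 to 43.8%) and 62.6% of 6429 other sites. OBOX4 occupancy rose from bin to bin at the lost sites and, from the bin of 3 to 4 on, at the other sites, and the gap between them was present in each bin. H3K27ac in at least 2 KO lists with PlaB was found at 56.1 and 76.6% between 3 and 4, and at 58.1 and 80.3% between 4 and 5. Lost sites were the shorter ones in each bin, with median lengths of 696.5 and 820 bases between 3 and 4. The highest bin has no upper limit, and the lowest enrichment ran to 10.9 at lost and 74.7 at other sites. The bins thus do not match the sites fully. The intervals cover counting error only and sites are not replicates of a condition, so no test was made.

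Most lost sites held no repeat at their middle base. This was the case for 1372 (63.1%) of them and for 52.9% of the other distal sites. LTRs, the regulatory ends of endogenous retroviruses, covered the middle of 502 lost sites (23.1%; other distal sites 26.5%), SINEs of 178 (8.18%; 7.96%) and LINEs of 104 (4.78%; 11.85%). Within the LTRs, ERVK elements were at 9.79% of lost and 16.3% of other sites, ERVL-MaLR elements at 7.31 and 4.60%, ERV1 at 4.51 and 4.24%, and ERVL, the class that includes the MERVL elements of the 2C embryo, at 1.471 and 1.304%. The young LINE *L1Md_T* made the widest gap by name, with 7 lost (0.322%) and 717 other sites (4.85%); it was singled out after its values were seen. With any overlap of 1 base counted, LTRs were in 38.6% of lost and 51.4% of the longer other sites.

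By name, the 6 most frequent repeats at lost sites were *RLTR1B* (32 sites), the SINE *B3* (22), *RLTR13D6* (21), the SINE *B4A* (18), the SINE *ID_B1* (15) and *MMERGLN_LTR* (15). They differed in their KO state. All 21 *RLTR13D6* sites were held in at least 2 KO lists without PlaB, 9 in at least 2 with PlaB, and 12 were bound by OBOX4. Of the 151 other distal sites in *RLTR13D6*, 151 were held without PlaB, 147 with PlaB, and 115 were bound. Of the 32 *RLTR1B* sites, 9 were held in at least 2 KO lists without PlaB, 1 with PlaB, and 1 was bound by OBOX4. The 75 other distal *RLTR1B* sites had 40 held without PlaB, 26 with PlaB and 6 bound. None of the 15 *MMERGLN_LTR* sites was held in at least 2 KO lists without PlaB, and 1 was held in at least 2 with PlaB, whereas 37 and 23 of the 54 other distal sites of this name were held. Of the SINE sites, 16 of 18 *B4A* and 15 of 22 *B3* sites were held with PlaB, against 54 of 59 and 81 of 95 of the other distal sites. OBOX4 in at least 2 lists was found at 107 of 502 LTR sites (21.3%), 205 of 1372 sites without a repeat (14.9%), 27 of 178 SINE sites (15.2%) and 8 of 104 LINE sites (7.69%). Reads from young repeats may align to several copies, so such peaks are uncertain as to copy.

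The middle 300 bases of lost and other distal sites held the searched letters about equally often, counted on both strands. GGGATTA was found in 4.74% of lost and 5.03% of other sites, and in 7.47% of OBOX4-bound lost and 6.73% of OBOX4-bound other sites. Letters of pluripotency factors were alike as well: the POU octamer ATGCAAAT at 2.94 and 2.91%, the SOX letters AACAATG at 6.07 and 5.17%, the ESRRB letters TCAAGGTCA at 1.43 and 1.90%, and the KLF letters CCACACCC at 5.70 and 5.25%. TEAD letters (GGAATG) stood at 19.8 and 19.3%, AP-1 letters (TGANTCA) at 11.7 and 10.9%, the E-box CACGTG at 3.77 and 3.95%, the TFCP2L1 letters AACCGGTT at 0.046 and 0.142%, and the spaced OCT4-SOX2 letters in none of the 2175 lost and 4 of the other sites. ATGCAAAT is also the end of the spaced OCT4-SOX2 letters. The median GC content was 48.0 and 47.7%. Of the 105 GGGATTA matches in lost sites, 50 (47.6%) lay in a SINE, 14 in an LTR and 40 outside repeats. The match in the Nanog site lies in a *B1_Mm* SINE, while that in the Gm48995 site lies in no annotated repeat. These are matches of letters and do not show binding.

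The 2175 lost sites had 1916 nearest genes by gene start, 932 of which were nearest to no other distal site. RNA of WT mESCs with PlaB was compared with untreated mESCs, for which the inducible line at 0 h had to serve, so PlaB, line and experiment cannot be told apart. Of 1026 nearest genes tested, 169 (16.5%) were higher with PlaB and 106 (10.3%) lower, by edgeR's quasi-likelihood test at an adjusted p of at most 0.01 and a log2 fold change of at least 1 in size. Over all 19539 genes tested the shares were 19.8% higher and 12.7% lower, so genes near a lost H3K27ac site were not called lower more often than genes in general. Their median log2 fold change was −0.01, against 0.01 over all genes. Their RNA levels were also higher, with a median log2 CPM of 4.48, against 3.02 over all genes tested. Of 4174 tested genes nearest to another distal site, 20.2% were higher with PlaB and 10.2% lower. The 583 genes nearest to a lost site held in no KO list with PlaB had 256 tested members, of which 71 (27.7%) were higher and 17 (6.64%) lower. The 1140 genes nearest to a lost site held in at least 2 KO lists with PlaB had 685 tested members, of which 84 (12.3%) were higher and 80 (11.7%) lower. These sets also differed in RNA level, with a median log2 CPM of 3.43 for the former and 4.93 for the latter. The contrast between them was not tested. In bulk RNA, fewer cells of a type and less RNA per cell cannot be told apart.

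Pluripotency genes made up a small part of the nearest genes, but their list was met more often than genes in general. Lost sites were nearest to 6 of 40 naive pluripotency genes (15%), among them *Etv5*, *Klf2*, *Lifr*, *Nanog* and *Tfcp2l1*, and to 3.46% of all annotated genes. Other distal sites were nearest to 23 (57.5%) of the naive genes and to 15.98% of all genes. These shares were not tested. *Nanog*, the homeodomain factor of the pluripotent state, was at 766, 772 and 798.5 CPM with PlaB and 1058, 899.5 and 893 CPM without, and did not pass the fold threshold (log2 fold change −0.29 ± 0.09, SE, edgeR adjusted p = 0.0073). Its lost site lay 23803 bases away in an intron of *Slc2a3* and carried OBOX4 in all 3 lists, with enrichments of 3.15, 3.58 and 3.93. H3K27ac there was 5.43, 5.17 and 4.98 in WT without PlaB and 5.69, 6.85 and 7.00 in KO with PlaB, so the KO lists with PlaB were all above the WT lists without it. *Nanog* had 5 other distal sites that were not lost.

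The other naive genes moved in both directions. *Klf2*, a Krüppel-like factor, rose from 151, 164 and 162 CPM to 322.5, 313 and 344 CPM (log2 fold change 1.04 ± 0.08, SE, edgeR adjusted p = 2.1e-09), although without the first 0 h library its value of 0.99 missed the fold threshold. *Tfcp2l1*, a CP2-family factor of naive cells, was at 1829, 1990 and 1824 CPM without and 1325, 1328 and 1292 CPM with PlaB (−0.52 ± 0.08), and *Lifr*, the receptor subunit for LIF, at 150, 162 and 144 without and 130, 133 and 141 CPM with PlaB (−0.17 ± 0.08). *Etv5*, an ETS factor of the FGF pathway, stood at 338, 299.5 and 314 without and 486, 480.5 and 466.5 CPM with PlaB (0.59 ± 0.08). *Tfcp2l1*, *Lifr* and *Etv5* did not pass the fold threshold, and each of these genes had at least 1 other distal site that was kept. Over the whole list of 40 tested naive genes, 10 were higher and 3 lower, with a median log2 fold change of 0.03.

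The sites next to *Lifr*, *Tfcp2l1* and *Klf2* were stronger in KO than in WT without PlaB, and those next to *Etv5* and *Nanog* overlapped. The *Lifr* site, 6870 bases from its start, was at 4.10, 3.42 and 4.92 in WT without PlaB and at 20.7, 16.3 and 17.25 in KO without PlaB, falling to 6.96, 6.85 and 4.69 in KO with PlaB. The intergenic *Tfcp2l1* site, 4554 bases from the start, was at 7.19, 5.04 and 6.33 in WT and at 35.9, 11.3 and 8.61 in KO without PlaB. The *Klf2* site, in an intron of *Eps15l1*, was at 3.37, 4.91 and 3.82 in WT and at 8.79, 9.42 and 8.15 in KO without PlaB, and at 5.57, 8.23 and 9.64 in KO with PlaB. At these 3 sites every KO list without PlaB stood above every WT list without PlaB. The *Etv5* intron site was at 4.10, 4.44 and 3.58 in WT and at 4.97, 6.19 and 3.29 in KO without PlaB. The *Nanog* site, with the WT values given above, was at 3.34, 5.63 and 4.83 in KO without PlaB. In WT with PlaB the nearest H3K27ac peak lay 343 bases from the *Lifr* site, 749 from *Tfcp2l1* and 329 from *Etv5*. For *Klf2* and *Nanog* it lay 1214 and 7012 bases away. Loss at such sites means no overlapping peak, not the absence of the mark nearby. The value of a list is the highest among its peaks that overlap the site, so it may come from a peak that reaches beyond it. Enrichment was also higher in KO at the other distal sites, with medians of 9.13 to 10.1 in KO and 6.22 to 7.17 in WT without PlaB. At all lost sites with a peak the medians were 5.77 to 6.19 in KO and 4.55 to 4.66 in WT without PlaB. A higher value in KO is thus not particular to these sites. The *Lifr* and *Klf2* sites differed by more than these medians did, which was not tested.

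**Figure D5:**
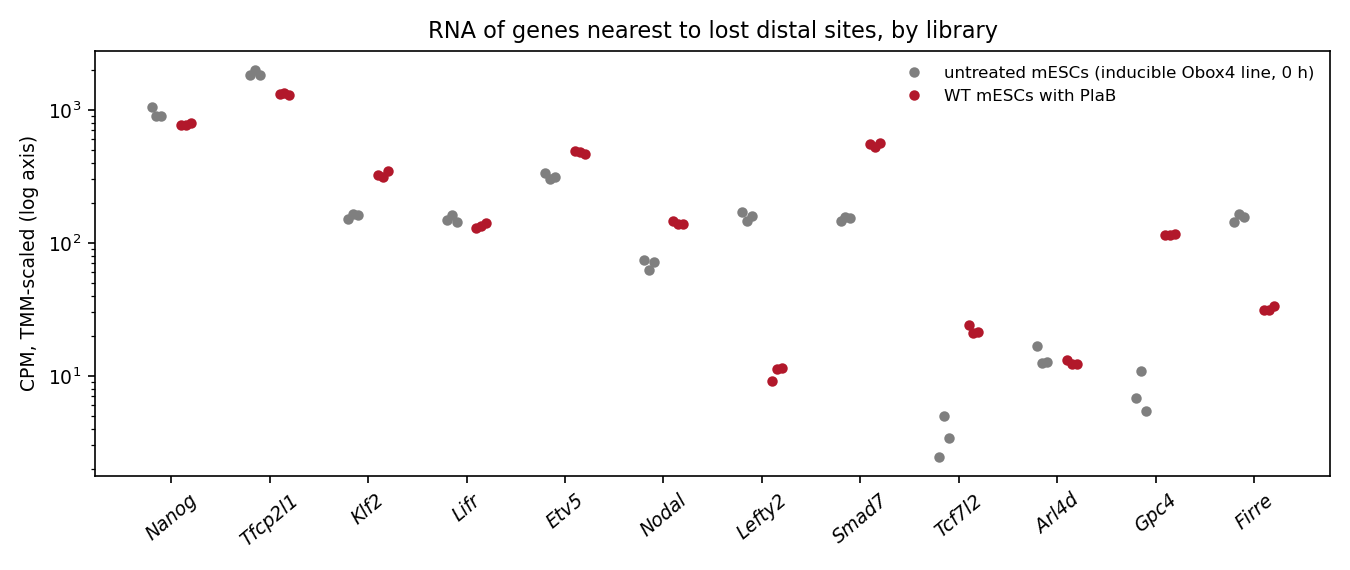
RNA levels in TMM-scaled CPM (y axis, log scale) of 12 genes nearest to lost distal sites (x axis) in the inducible line at 0 h (grey, untreated) and WT mESCs with PlaB (red), 1 point per library. *Smad7*, *Tcf7l2* and *Gpc4* are higher with PlaB in every library and *Lefty2* and *Firre* lower, whereas *Arl4d* overlaps.

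Among 38 genes of LIF, WNT, BMP, TGF-beta and FGF signalling, 20 were higher and 3 lower with PlaB (median log2 fold change 1.05). Lost sites were nearest to 6 of the 38 (15.8%), against 3.46% of all annotated genes. Of these 6, the TGF-beta family members moved in both directions. *Nodal*, the ligand, stood at 74.6, 62.6 and 71.3 CPM without and 146, 137 and 138 CPM with PlaB (log2 fold change 1.02 ± 0.08, SE, edgeR adjusted p = 6.1e-09), at the threshold, which it missed in 3 of the alternatives. *Lefty2*, a secreted Nodal antagonist, fell from 171, 147 and 159 to 9.12, 11.2 and 11.5 CPM (−3.90 ± 0.10, SE, edgeR adjusted p = 3.1e-15). *Smad7*, an inhibitory SMAD, rose from 147, 155.5 and 152.5 to 551, 528 and 566 CPM (1.85 ± 0.08). *Tcf7l2*, a WNT effector with 2 lost sites, rose from 2.465, 4.97 and 3.43 to 23.9, 20.9 and 21.5 CPM (2.60 ± 0.17). Lost sites thus stood next to genes with higher RNA (*Smad7* and *Tcf7l2*) and lower RNA (*Lefty2*), and a link was not tested. *Smad7*, *Tcf7l2* and *Lefty2* had 1, 4 and 1 other distal sites that were kept. In WT with PlaB a peak lay 358 bases from the *Lefty2* site and 748 bases from 1 *Tcf7l2* site. The *Smad7* intron site, at 4.35, 5.12 and 3.87 in WT without PlaB, had no KO peak without PlaB but peaks of 10.1, 8.47 and 10.5 in KO with PlaB. The *Lefty2* site, the *Nodal* site and the *Tcf7l2* site in an intron of *Vti1a* kept H3K4me3 in all 3 WT lists with PlaB. The *Smad7* site and the other *Tcf7l2* site had it in all 3 lists without PlaB and in none with PlaB.

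Genes of the 2C embryo were next to lost sites about as often as genes in general. Of 31 annotated genes of the 2C list, *Arl4d*, an ARF-like GTPase, was the 1 gene (3.23%) nearest to a lost site, and 3.46% of all annotated genes were. *Arl4d* stood at 16.6, 12.5 and 12.6 CPM without and 13.1, 12.3 and 12.4 CPM with PlaB (log2 fold change −0.14 ± 0.12, SE, edgeR adjusted p = 0.29), while 29 of 30 tested genes of that list were higher and none lower (median log2 fold change 5.81). Its site was at 4.10, 5.46 and 2.702 in WT without PlaB, had no KO peak without PlaB, and was at 4.59, 7.08 and 5.66 in KO with PlaB. The formative list had 12 of 20 tested genes higher and 3 lower (median 1.35). Its members nearest to lost sites were *Nodal* and *Lefty2* (2 of 21, 9.52%). The trophectoderm list had 15 of 19 tested genes higher, and 1 of its 20 genes (5%), *Tfap2c*, was nearest to lost sites. None of 18 primitive endoderm or 15 neural genes was nearest to a lost site. Lists this short cannot set these counts apart from the 3.46% of all annotated genes.

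Groups of lost sites lay at 2 X-linked genes that moved in opposite directions. *Gpc4*, a heparan sulfate proteoglycan of the cell surface, had 4 lost sites within 34075 bases of its start and no other distal site. Its RNA rose from 6.81, 10.9 and 5.41 to 114, 114 and 117.5 CPM (log2 fold change 3.90 ± 0.16, SE, edgeR adjusted p = 1.0e-12). Of the 4 sites, 3 were in every KO list without PlaB and 3 in no KO list with PlaB, and the second carried OBOX4 at 7.46, 4.96 and 5.03. *Firre*, a long non-coding RNA, had 4 lost sites within its introns and 3 other distal sites, and its RNA fell from 145, 166 and 157 to 31.09, 31.02 and 33.39 CPM (−2.29 ± 0.08). OBOX4 was in at least 2 lists at 3 of the 4 *Firre* sites, and the site printed above was at 5.47, 7.51 and 6.44 in WT and 6.11, 5.80 and 5.01 in KO without PlaB.

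The 8 largest rises among the nearest genes were *Slc34a2*, *Drd3*, *Htr5a*, *Slc9a9*, *Nfam1*, *Gpc4*, *Slc6a12* and *Ssc5d*, with log2 fold changes from 3.65 to 7.89. *Slc34a2*, a sodium-phosphate transporter, rose from 0.125, 0 and 0.066 to 15.7, 15.2 and 15.2 CPM (7.89 ± 0.28, SE, edgeR adjusted p = 1.2e-13), and its lost site, in an *RLTR1B* LTR, was in no KO list. *Nfam1*, an immune receptor, rose from 1.21, 1.77 and 2.01 to 27.5, 28.9 and 24.4 CPM. The other members of this set, apart from *Gpc4*, reached at most 9.84 CPM with PlaB and include a dopamine receptor (*Drd3*) and a serotonin receptor (*Htr5a*). The 8 largest falls were *Lefty2*, *Nupr1*, *Slc11a1*, *Gabrp*, *Firre*, *Kcnj13*, *Ly75* and *Qpct*, from −3.90 to −2.08. *Nupr1*, a stress-induced nuclear protein, fell from 48.8, 44.0 and 47.6 to 2.52, 3.82 and 3.47 CPM, and *Ly75*, an endocytic receptor, from 332, 323 and 301 to 74.3, 70.2 and 68.8 CPM. Both sets were taken from called genes whose libraries did not overlap, leaving out low counts and clone names. The lack of overlap was thus set by the choice.

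Other named genes, near the strongest sites, near sites also lost in KO or near groups of sites, had smaller differences with PlaB. *Ppif*, a mitochondrial cyclophilin whose site lies in *Zmiz1*, had a log2 fold change of −0.33, *Yars*, the tyrosyl-tRNA synthetase, −0.68, *Wdr20*, a deubiquitinase cofactor, −0.72, and *Rufy3* −0.86, and *Oxr1*, an oxidation resistance gene, −0.02. *Bnip3l*, a mitophagy receptor with 3 lost sites and no other distal site, had −0.25, and *Marc2*, with 2, had −0.59. None of these 7 genes was called.

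With PlaB, RNA of *Obox4* KO mESCs was compared with that of WT mESCs, which also entered the comparison above. Of 1129 nearest genes tested, 46 (4.07%) were higher and 63 (5.58%) lower in KO, against 4.92 and 3.96% of all 22328 genes (8.88% in both directions). Without the third KO library, in which *Obox4* reads were highest, 60 were higher and 102 lower, and 99 of the 109 genes were called in both fits. With all libraries, 3.62% of 4618 tested genes nearest to another distal site were higher in KO and 5.59% lower. The share called lower was thus not particular to genes near lost sites. Of the naive genes near lost sites, *Lifr* fell from 137, 140 and 149 to 28.8, 29.4 and 65.85 CPM (log2 fold change −1.78 ± 0.26, SE, edgeR adjusted p = 4.3e-04). The third KO library was nearest to WT. *Nanog* (−0.72), *Klf2* (−0.66) and *Etv5* (−0.78) stayed under the fold threshold, as did *Gpc4* (−0.26). In the whole naive list, 9 of 40 genes were lower and none higher, with a median log2 fold change of −0.77.

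Further nearest genes with large KO differences were picked after their values were seen. *Lgals3*, galectin-3, stood at 100.5, 101 and 118 CPM in KO and 15.4, 16.9 and 15.2 CPM in WT (log2 fold change 2.75 ± 0.11, SE, edgeR adjusted p = 1.6e-07), and its site was in every KO list without PlaB and in none with PlaB. It was also called higher in WT with PlaB than in the 0 h libraries, at 14.7, 16.1 and 14.4 against 7.81, 7.35 and 7.26 CPM (1.01 ± 0.11, SE, edgeR adjusted p = 2.4e-07). *Nupr1* (2.75) was at 31.8, 33.45 and 4.12 CPM in KO and 2.65, 4.02 and 3.665 CPM in WT, so its call rested on 2 KO libraries, and it missed the threshold in 6 alternatives. *Irs3* (2.88) and *Slc11a1* (2.16) were also higher, and *Nlrp9c* (−3.91), the cytokine *Il7* (−2.43) and the potassium channel *Kcnf1* (−2.09) lower.

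Induction of *Obox4* for 48 h changed few nearest genes. *Obox4* reads rose from 0.379 to 0.583 CPM at 0 h to 7.43 to 8.41 CPM at 48 h. Of 996 nearest genes tested, 21 (2.11%) were higher and 11 (1.10%) lower, against 3.37 and 0.574% of all 18625 genes. With the replicate number as a block, 11 were higher and 10 lower. Of 3964 tested genes nearest to another distal site, 2.725% were higher and 1.03% lower without the block. Among 153 tested genes nearest to an OBOX4-bound lost site, 1 was higher and 1 lower. The 0 h libraries are those used as untreated cells above. *Arl4d* rose from 16.2, 12.3 and 12.5 to 141, 110 and 110 CPM (log2 fold change 3.14 ± 0.20, SE, edgeR adjusted p = 1.2e-05), and *Slc6a8*, the creatine transporter, from 93.2, 101.7 and 110 to 393, 427 and 464 CPM (2.08 ± 0.13). *Npffr1* (3.26) and *Htr5a* (2.52), both receptors of the nervous system, rose at low levels, and the call of *Htr5a* was lost in 7 alternatives. *Slc11a1* (−2.29), the riboflavin transporter *Slc52a3* (−1.93), *Ifitm1* (−1.53) and *Tfap2c* (−1.43) fell, while *Nanog* (0.60) and *Nodal* (0.49) stayed under the fold threshold. *Arl4d*, *Nanog* and *Nodal* were named as list members. *Htr5a* and *Slc11a1* were named for their large changes with PlaB, which were measured against the same 0 h libraries. The other genes here, *Tfap2c* among them, were named after their values were seen.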

How the data were processed

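Mouse embryonic stem cells were profiled by CUT&RUN and RNA-seq. The authors aligned CUT&RUN reads to GRCm38.p6 with Bowtie2 2.4.1 and called peaks in each replicate with MACS3 3.0.0a6. The deposited peak lists give the fold enrichment over the local background, a linear ratio, and the −log10 q of each peak, and the summit offset was not used. RNA-seq reads were trimmed with fastp 0.23.2 and aligned with STAR 2.7.9a, and the deposited gene counts were made by the authors with featureCounts 2.0.1. The authors discarded multi-mapping reads from the gene counts. The deposited repeat tables hold fractional counts (their unit is taken to be expected counts), in which the authors divided multi-mapping reads, and only their locus coordinates were used here. Total counts ran from 14283083 to 48837123 in the PlaB table and from 22470332 to 31504967 in the induction table. The depth behind the peak lists is unknown.

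Sites were merged from the lists, and a list held a site when a peak overlapped it by 1 base or more. The members, gene lists and letters were chosen with earlier results of these data known. Shares carry 95% Wilson intervals, which cover counting error only. Lists were compared by two-sided exact permutation tests, adjusted over 5 tests of marks, and 3 against 3 lists cannot go below p = 0.1. Counts were tested across all genes with edgeR 4.0.16 in R 4.3.3 (quasi-likelihood, TMM, filterByExpr), 1 fit per table and 1 for WT with PlaB against the 0 h libraries, with Benjamini-Hochberg adjustment. Genes were called at an adjusted p of at most 0.01 and a log2 fold change of at least 1 in size. On simulated data with known changes, 92, 68 and 76% of genes changed by 4-fold were found in the PlaB, KO and induction comparisons, and 37, 17 and 32% of genes changed by 2-fold, the size of the threshold. Genes were assigned to sites by the nearest of 55364 gene starts, 55104 of which matched a symbol. Gene starts, introns and exons came from the coordinates in the deposited gene table, repeats from the loci in the deposited repeat table, and sequences from the RefSeq GRCm38.p6 genome.

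Named sites were the 10 with the highest lowest-of-3 enrichment, the leading 6 bound in all 3 OBOX4 lists, the leading 6 held in all KO lists without PlaB and none with PlaB, and the 6 largest groups, and not each is described. Named genes were their nearest genes and members of the naive, formative, signalling and 2C lists nearest to a lost site. The 8 largest rises and falls with PlaB, among called genes whose libraries did not overlap, were also named. Replicates came from separately labelled samples. The study calls the replicates of the peak lists and of the induction biological. For the PlaB RNA-seq separate cultures are not stated, so p-values there measure the spread between these samples, which may be technical. Same-numbered libraries did not deviate together in the PlaB comparisons. In the induction comparison their correlations were 0.38, 0.21 and 0.064, and those of differently numbered libraries ran from −0.35 to 0.22. Numbers were not taken as pairs in the main fits. For the induction this is not settled, and the block gave 21 called nearest genes instead of 32. For 3 IgG samples the labels conflict and they entered no comparison. Embryo tables were not used. Alternatives were other peak thresholds, overlaps and distances, list sizes, DESeq2 1.42.0, no filter on low counts, the replicate number as a block, and leaving out each library. Some named genes are not reported here.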

Additional observations from a re-analysis of the deposited data

Results flagged for a closer look

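The change in H3K4me3 with PlaB at lost distal sites differed between lines. The change in WT minus that in *Obox4* KO was −16.66 percentage points (exact permutation of the WT and KO labels within each treatment, p = 0.005, the smallest of 400 arrangements). Sites were chosen by WT H3K27ac peaks and the lines differed without PlaB, so this p-value does not test the change alone. The same difference was −15.07 points at the other distal sites. It was −6.866 points at lost sites when all H3K4me3 lists were held to 31829 peaks, and the part of list size beyond that was not tested.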

How the results depend on the processing

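The number of lost sites depended most on the peak lists. It was 2175 as reported, 353 with peaks of a −log10 q of at least 5, 6368 when 2 of 3 lists had to hold a site, 1256 with lists of equal size (chosen after seeing the data), and 2592 to 4974 when 1 WT list was left out, highest without WT list 1 without PlaB. The share with OBOX4 in at least 2 lists, 16.0%, was 22.95% at the stricter q, 11.86% with 2 of 3 lists, 26.96% when the peaks of a list had to cover most of a site, 11.4% for all 3 OBOX4 lists, 23.26% for any list and 12.38 to 17.35% with a list left out. LTRs were at 38.57% of lost sites with an overlap of 1 base and GGGATTA at 2.667% within 75 bases of the middle. Assigning each site to the nearest start among tested genes, also chosen after seeing the data, gave 564, 190 and 75 called genes in the PlaB, KO and induction comparisons, where 275, 109 and 32 were called as reported.

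Leaving out 1 list moved the KO change in H3K27ac between −16.26 and −9.107 percentage points, the WT change in H3K4me3 between −29.2 and −23.65, and that in H3K27me3 between 0.01533 and 0.2545. Leaving out 1 library moved the called genes between 255 and 282, 73 and 162, and 24 and 36. With the replicate number as a block, the changes in marks were −12.48, −28.17 and 0.0613 points (exact sign-flip p = 0.25, 0.25 and 0.75, with 0.25 the smallest possible), and the called genes 278, 95 and 21, where the induction count moved by over 1.5 times. DESeq2 called 272, 124 and 40 genes. *Nodal* and *Klf2* (PlaB), *Nupr1* (KO) and *Htr5a* (induction) lost their call in at least 1 alternative, and the direction turned only for *Oxr1* (PlaB), whose log2 fold change of −0.02 lay between −0.08399 and 0.00187 with 1 library left out. The cause of these moves was not tested, apart from the fewer genes and samples that the alternatives themselves bring. The depth of the peak lists is not given in the files, so a weak site absent from a list may be under its limit of detection.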
